A study of Mus musculus with 4 samples.

Results

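The Krüppel-like factor (KLF) genes Klf2, Klf3, Klf4, Klf5, Klf6, Klf7, Klf9, Klf10, Klf11 and Klf13 were followed in sorted cells of the newborn mouse cochlea, with and without a short exposure to the ototoxic antibiotic gentamicin. They were taken by symbol, and all 10 were found among the 23420 genes listed. After gentamicin, Klf10 was 4.11-fold and Klf11 3.19-fold higher in hair cells (HC). In the non-hair cells (NHC) of the same organs both were lower, at 0.667 and 0.755 of their control levels. Neither NHC difference passed an adjusted limma p under 0.05. Klf4 was lower in treated HC, at 0.483 of its control level. Without drug, 8 of the 10 genes were lower in HC than in NHC, and Klf9 was higher. By the same threshold, 40.9% of all genes tested were lower in HC and 30.2% were higher. The genes were chosen by symbol with their measured scores and differences in these libraries in view, so their levels and changes are a description, given with errors and intervals but without p-values.

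KLF proteins are transcription factors that bind GC-rich and CACCC-containing DNA through zinc fingers close to those of the Sp family. Klf2, Klf4, Klf5, Klf6 and Klf7 mostly activate genes with acetyltransferase coactivators, Klf3 represses through the CtBP corepressors, and Klf9, Klf10, Klf11 and Klf13 recruit the Sin3 corepressor. Several are early response genes: Klf10 and Klf11 were first described as TGF-beta inducible early genes, Klf9 is induced by glucocorticoid and thyroid hormone, and Klf2 and Klf4 lie downstream of the ERK5 kinase and MEF2 factors in endothelium.

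All 4 groups came from cochleae of CD1 mice carrying a green fluorescent protein reporter for Atoh1, a transcription factor of hair cells, dissected at postnatal day 1 and cultured overnight in penicillin-containing medium under 5% CO2 and 5% O2. Organs then received 0.5 mM gentamicin for 3 h or none, and cells were sorted into GFP-positive HC and GFP-negative NHC, so that HC control, HC gentamicin, NHC control and NHC gentamicin were compared. The reporter defines the HC, cells with weak GFP were left out of both gates, and NHC are a mixture of supporting cells, the epithelium beside them and surrounding tissue. Each group held 3 replicate libraries of polyadenylated RNA, which the study calls biological replicates, and the errors cover the spread between these libraries. The recovered depth was 22398480 to 28149221 reads per library. The value of a gene is its score, the scaled read number with 1 added, so that a score of 1 means no read. All 10 KLF genes passed the minimum of 100 reads over the 12 replicates, as 16077 genes did, with 2129 reads for Klf7 at the low end and 39975 for Klf4 at the high end.

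The sort separated the populations by their hair cell markers. The summed score above 1 of 7 hair cell markers was 11370 to 11790 in control HC and 264 to 267 in control NHC. HC libraries also held RNA of genes that mark other cells. A list of 6 mesenchyme markers summed to 193 to 472 in control HC (472 in replicate 2) and 107 to 159 in treated HC, against 5110 to 6891 in control NHC. For 6 endothelial markers, every one of them detected, the sums were 13.2 to 24, 7.79 to 12.9 and 292 to 341 in the same order. The 7 supporting cell markers summed to 1230 to 1426 in control HC and 563 to 1047 in treated HC. In control NHC they summed to 605 to 1070, below control HC, so this list does not set NHC apart from HC. The 5 Schwann cell markers summed to 201 to 247 in control HC, 100 to 169 in treated HC and 478 to 704 in control NHC. Neuron markers (5 genes, 971 to 1155 and 915 to 1071) and macrophage markers (6 genes, 2.95 to 4.22 and 3.96 to 5.67) overlapped between control and treated HC. In control NHC the neuron markers summed to 469 to 1267, overlapping HC, and the macrophage markers to 28.7 to 54.3. In bulk samples like these, fewer cells of a type and less RNA per cell cannot be told apart.

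Promoter sequence from RefSeq (build GRCm38.p6, the assembly also named mm10) was matched for 8 of the 10 genes, all but Klf5 and Klf10. The stretches of Klf11, Klf4 and Klf9 are shown because Klf11 and Klf4 moved most in treated HC among the genes with a sequence, in opposite directions, and Klf9 was the gene higher in HC than in NHC. They are written 5′ to 3′ on the strand of the gene and lie upstream of the first exon, outside every exon of GENCODE M21, as chr12:24651121-24651273 (plus strand), chr4:55532476-55532725 (minus strand) and chr19:23140976-23141225 (plus strand). Capitals mark the GC box GGGCGG, the CACCC box and TGACG, the core of a cAMP response element, on either strand.
Klf11 promoter: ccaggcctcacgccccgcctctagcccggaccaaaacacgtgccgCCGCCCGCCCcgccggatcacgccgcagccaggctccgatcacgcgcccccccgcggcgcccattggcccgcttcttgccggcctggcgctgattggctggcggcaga
Klf4 promoter: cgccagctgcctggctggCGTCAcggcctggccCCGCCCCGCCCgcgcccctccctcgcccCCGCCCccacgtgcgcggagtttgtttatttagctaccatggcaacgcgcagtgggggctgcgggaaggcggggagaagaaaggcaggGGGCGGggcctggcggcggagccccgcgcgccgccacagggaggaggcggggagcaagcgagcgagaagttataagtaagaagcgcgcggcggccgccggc
Klf9 promoter: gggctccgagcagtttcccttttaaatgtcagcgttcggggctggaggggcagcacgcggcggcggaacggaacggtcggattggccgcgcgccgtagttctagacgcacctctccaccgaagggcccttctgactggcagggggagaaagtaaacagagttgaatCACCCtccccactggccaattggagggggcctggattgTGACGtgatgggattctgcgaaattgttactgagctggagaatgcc
The 153 bases shown for Klf11 hold 2 overlapping matches to the GC box, the 250 bases of Klf4 hold 4 matches to it and 1 to TGACG, and the 250 bases of Klf9 hold no GC box but 1 CACCC and 1 TGACG. In the full 250 upstream bases GGGCGG was present in 7 of the 8 genes and in 32.7% of 32851 promoters, CACCC in 5 of 8 and in 52.0%, and TGACG in 4 of 8 and in 17.8%. The full cAMP response element TGACGTCA, the AP-1 site TGACTCA and the TATA box TATAAA were in none of the 8, and in 1.55%, 4.46% and 12.4% of all promoters. The GC content of the 8 ran from 59.2% to 78.4%, above the median of 52.4% over all promoters. A match to these letters is a description and shows no binding.

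**Figure D1:**
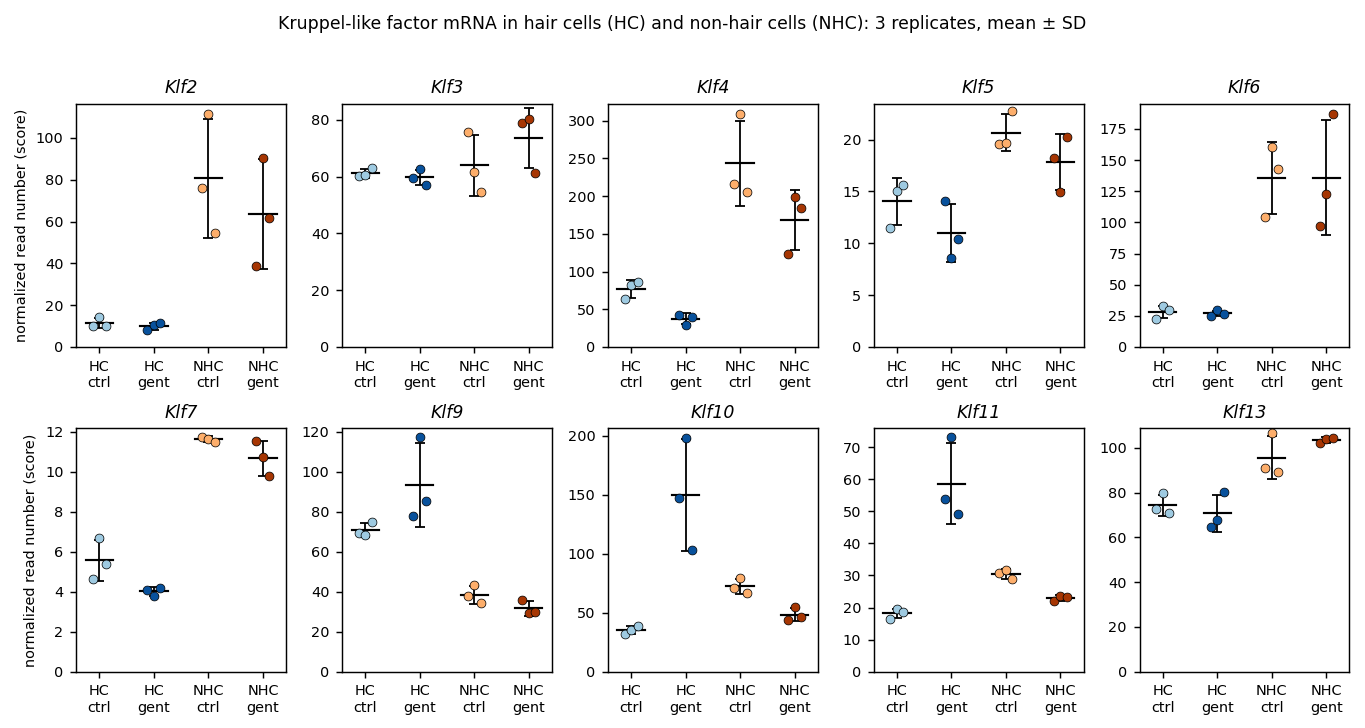
Score (normalised read number with 1 added, linear axis from 0) of the 10 KLF genes in each of the 3 replicates of HC and NHC, control (ctrl) and gentamicin (gent). Bars are the mean ± SD. Treated HC lie above all other libraries for Klf10 and Klf11, and Klf2, Klf4 and Klf6 lie highest in NHC.

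Klf10 and Klf11, the TGF-beta inducible members that recruit Sin3, were the 2 KLF genes that met the call on the higher side in treated HC. The call used for the gentamicin comparisons was an unadjusted limma p under 0.01 with a fold change over 1.2. Klf10 (chr15:38291463-38300706, minus strand) had scores of 32.0, 35.0 and 38.7 in control HC and 148, 198 and 103 in treated HC. The lowest treated library was above the highest control library, and the treated libraries were more spread. The log2 difference was 2.04 (SE 0.19, 95% interval 1.62 to 2.46), and it was between 1.81 and 2.28 under every alternative, the lower value being without gentamicin replicate 2. Klf11 (chr12:24651274-24662789, plus strand), whose upstream bases are given above, had scores of 16.5, 19.5 and 18.6 in control HC and 53.7, 73.1 and 49.1 in treated HC. Again the groups did not overlap, and replicate 2 was the highest treated library for both genes. The log2 difference of Klf11 was 1.67 (SE 0.13, interval 1.38 to 1.96), with 1.5 to 1.79 under the alternatives.

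In NHC the same genes lay lower with drug. Klf10 scores were 71.2, 79.1 and 66.9 in control NHC and 43.7, 54.9 and 46.7 in treated NHC, and Klf11 scores were 30.8, 31.8 and 28.9 against 22.1, 23.5 and 23.4. Neither gene's groups overlapped. The log2 differences were -0.58 (SE 0.19, interval -1.0 to -0.17) and -0.41 (SE 0.13, interval -0.69 to -0.12). The NHC call rests on the threshold for both genes. Klf11 met it and Klf10 did not. Klf11 lost it when any single NHC library was left out (-0.44 to -0.37), and Klf10 gained it without gentamicin replicate 2 (-0.68). Taken as the effect in HC minus the effect in NHC, the difference was 2.62 (SE 0.27) for Klf10 and 2.08 (SE 0.19) for Klf11. It was 2.40 to 2.87 and 1.91 to 2.19 under the alternatives.

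For these genes the HC libraries exchanged places with the NHC libraries. Control HC held 43.5% to 52.8% of the mean control NHC level of Klf10, and treated HC held 143% to 276% of it. For Klf11 the shares were 52.6% to 62.7% and 163% to 244%. Both genes stood above every NHC library in treated HC. The mesenchyme markers stood at 1.71% to 2.54% of their control NHC level in treated HC and the endothelial markers at 2.48% to 4.10%. The supporting cell markers stood at 71.6% to 133% there, and the Schwann cell markers at a median of 24.2%. Neuron marker sums of treated HC overlapped those of control NHC. The part of RNA from other cells in the Klf10 and Klf11 differences was not tested.

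Klf4, an activator and repressor known from pluripotency and barrier epithelia, was the member that lay lowest relative to control in treated HC. Its scores (chr4:55527143-55532466, minus strand) were 62.9, 82.5 and 85.6 in control HC and 42.9, 29.0 and 40.2 in treated HC. Every treated library was below every control library. The log2 difference was -1.05 (SE 0.22, interval -1.53 to -0.57), and the alternatives gave -1.19 to -0.88. In NHC, Klf4 scores were 216, 309 and 206 without drug and 123, 198 and 185 with it, also without overlap. The log2 difference there was -0.53 (SE 0.22, interval -1.02 to -0.05), which did not meet the call, and the difference between the effects was -0.52 (SE 0.31, interval -1.20 to 0.16). Klf4 was richer in NHC. Control HC held 25.5% to 34.9% of the control NHC level and treated HC 11.5% to 17.3%. The mesenchyme markers moved with it, from 3.09% to 7.55% of their control NHC level in control HC to 1.71% to 2.54% in treated HC, and the endothelial markers from 4.20% to 7.63% to 2.48% to 4.10%. The supporting cell markers went from 157% to 182% of their control NHC level to 71.6% to 133%, and the Schwann cell markers from a median of 33.8% to a median of 24.2%, also without overlap. Without HC control replicate 2, the library with the most mesenchyme RNA, the Klf4 difference was -0.99. The remaining control HC libraries, at 193 and 213, still summed above the treated ones (107 to 159) in mesenchyme markers. The part of these marker sets in the Klf4 difference was not tested.

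Klf7, a factor best known from neurons, was the other member that met the call in treated HC on the lower side. Its scores were low, at 4.65, 6.69 and 5.38 in control HC and 4.09, 3.76 and 4.21 in treated HC, and control replicate 2 stood above the rest. The log2 difference was -0.46 (SE 0.14, interval -0.76 to -0.15). The call held in 4 of 14 alternatives. It was lost with scaling by total reads (-0.38), and it was lost without either control replicate 2 (-0.32) or control replicate 3 (-0.47), and without gentamicin replicate 1 (-0.47), 2 (-0.41) or 3 (-0.49). Of the exon bases of Klf7, 39.3% lie under exons of the long noncoding RNA Gm26649 on the opposite strand. The sources used here do not say whether reads were counted by strand, so Klf7 values may hold reads of that RNA and are uncertain. Klf7 was also lower in control HC than in control NHC. The mesenchyme, endothelial, Schwann cell and macrophage marker sums were higher in control NHC. The supporting cell sum was lower there, and the neuron sums overlapped (469 to 1267 in control NHC and 971 to 1155 in control HC). The share of other cells in the Klf7 values was not tested.

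Klf9, the hormone-induced member, was the only KLF gene of the 10 that was higher in control HC than in control NHC. Its scores (chr19:23141226-23168134, plus strand) were 69.4, 68.2 and 74.7 in control HC and 77.9, 117 and 85.4 in treated HC. The treated libraries were all above the control ones, with replicate 2 well above the rest. The log2 difference was 0.38 (SE 0.15, interval 0.06 to 0.70) and did not meet the call, which it met without gentamicin replicate 1 (0.50) and with scaling by total reads (0.48). In NHC, Klf9 had 37.7, 43.4 and 34.2 without drug and 36.0, 29.2 and 29.9 with it, and these ranges overlapped. The log2 difference was -0.28 (SE 0.15), and HC minus NHC effects differed by 0.66 (SE 0.21, interval 0.21 to 1.11), which missed the adjusted threshold used for all genes. That threshold was met without HC gentamicin replicate 1 (0.78) and with scaling by total reads (0.73).

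The remaining members gave no call in treated HC. Klf2, an endothelial and lymphocyte factor, had scores of 9.90, 14.3 and 9.94 in control HC and 7.93, 10.3 and 11.3 in treated HC, with a log2 difference of -0.21 (interval -0.90 to 0.49). Klf5, an epithelial proliferation factor, had 11.5, 15 and 15.7 against 14.1, 8.57 and 10.4, a difference of -0.37 (interval -0.79 to 0.05). In both genes the groups overlapped. Klf6, an injury-responsive activator, had 22.6, 32.6 and 29.3 against 24.7, 29.4 and 26.5, a difference of -0.06 (interval -0.56 to 0.45). Klf3, the CtBP-dependent repressor, had 60.1, 60.5 and 63.0 against 59.6, 62.5 and 57.0, a difference of -0.04 (interval -0.31 to 0.23). Klf13, a Sin3-recruiting repressor, had 72.7, 79.8 and 70.8 against 64.5, 68.0 and 80.2, a difference of -0.07 (interval -0.28 to 0.13). For Klf3, Klf6 and Klf13 the sign turned with scaling by total reads, at 0.06, 0.04 and 0.02.

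In NHC the treated and control ranges of these genes, and of Klf7, overlapped as well. Klf2 had 76.2, 111 and 54.5 in control NHC and 38.5, 90.6 and 61.6 in treated NHC, a wide spread in both groups. Klf6 had 104, 161 and 143 against 97.5, 123 and 187. Klf3 had 75.6, 61.4 and 54.7 against 78.8, 80.4 and 61.3. All of these ranges overlapped, with log2 differences of -0.37 (interval -1.06 to 0.33), -0.03 (interval -0.53 to 0.47) and 0.20 (interval -0.07 to 0.48). Klf5 ran from 19.6 to 22.7 without drug and from 14.9 to 20.3 with it, Klf7 from 11.5 to 11.7 and from 9.79 to 11.5, and Klf13 from 89.4 to 107 and from 102 to 105. Their log2 differences were -0.22, -0.13 and 0.12, each with an interval that holds 0.

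Counted together, 4 of the 10 genes met the call in HC, Klf10 and Klf11 higher and Klf4 and Klf7 lower. Among all 16077 genes tested, 27.5% met it, 12.7% higher and 14.8% lower. With scaling by total reads the 2037 higher and 2381 lower genes became 2774 and 1591, and the KLF genes that met the call were Klf4, Klf9, Klf10 and Klf11, with Klf7 lost (-0.38) and Klf9 gained (0.48). Without HC control replicate 2 the count was 3. The libraries did not overlap for 5 of the 10 genes (Klf4, Klf7, Klf9, Klf10 and Klf11), as for 54.8% of all genes, and the median log2 difference was -0.06 for the 10 genes and -0.09 for all genes. In NHC 1 of the 10 genes (Klf11) met the call, against 5.44% of all genes, 3.18% higher and 2.26% lower (512 and 363 genes, or 634 and 282 with scaling by total reads), and the libraries did not overlap for 3 (Klf4, Klf10 and Klf11), against 17.8%. At an adjusted limma p under 0.05, 0 of the 10 genes passed in NHC, beside 55 of all 16077 genes tested. The unadjusted limma p was under 0.05 for 3 of the 10, and the share of all genes at that threshold was not counted. The median was -0.25 for the 10 genes and -0.01 for all genes. For the difference between the effects, 2 of the 10 (Klf10 and Klf11) passed an adjusted p under 0.05, beside 13.4% of all genes, 6.85% higher and 6.57% lower (1102 and 1056 genes, or 1500 and 716 with scaling by total reads). Because these contrasts were in view when the genes were picked, the shares stand beside each other only as background.

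**Figure D2:**
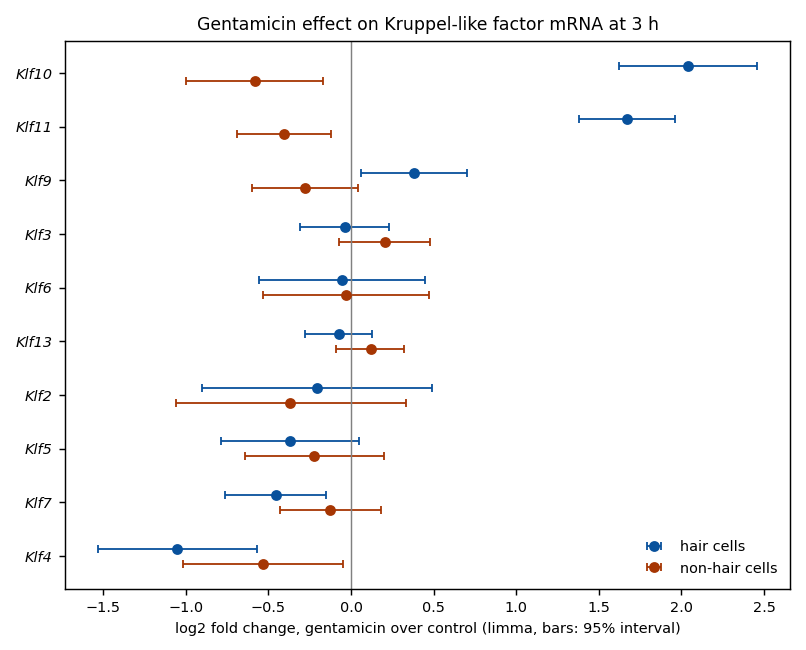
Log2 fold change of each KLF gene, gentamicin over control, in HC (blue) and NHC (brown), with 95% intervals from limma over 3 replicates per group. Klf10 and Klf11 lie at 2.04 and 1.67 in HC and below 0 in NHC, and Klf4 lies below 0 in both.

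**Figure D3:**
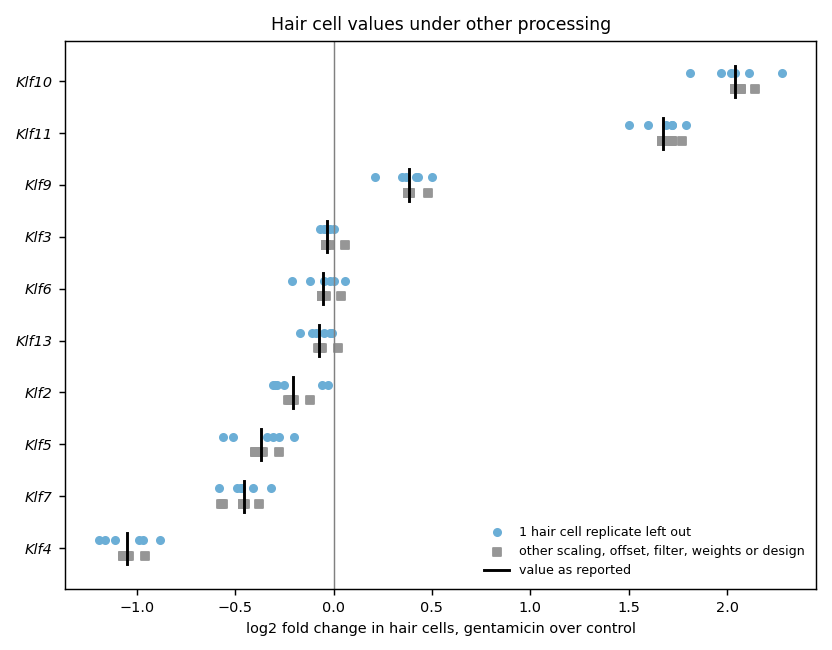
Log2 fold change in HC, gentamicin over control, as reported (black line), with each of the 6 HC replicates left out in turn (circles) and with other scaling, offset, filter, weights or design (squares). Klf10, Klf11 and Klf4 keep their side of 0 in all 14 alternatives, and Klf3, Klf6 and Klf13 lie around 0.

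Without drug, 9 of the 10 genes differed between HC and NHC at an adjusted limma p under 0.05 with a fold change over 1.2, beside 71.1% of all genes, 30.2% higher and 40.9% lower in HC. This comparison uses the control libraries of both gentamicin comparisons. Of the 9 genes, 8 were lower in HC and 1 (Klf9) was higher. The libraries did not overlap for the same 9, against 79.2% of all genes. The median log2 difference, HC over NHC, was -0.89 for the 10 genes and -0.12 for all genes, which became -0.01 with scaling by the median ratio. Klf2 differed most, at -2.78 (SE 0.32), followed by Klf6 at -2.26 (SE 0.23) and Klf4 at -1.65 (SE 0.22). Klf7 stood at -1.08 (SE 0.14), Klf10 at -1.04 (SE 0.19), Klf11 at -0.75 (SE 0.13), Klf5 at -0.57 (SE 0.19) and Klf13 at -0.36 (SE 0.09), and Klf9 stood at 0.89 (SE 0.15). Klf3, with overlapping libraries, stood at -0.05 (interval -0.32 to 0.22). Klf5 lost its call without HC control replicate 1 (-0.43) or NHC control replicate 3 (-0.50), and Klf13 lost it with scaling by the median ratio (-0.23).

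Levels were ordered between genes per length, as the score above 1 divided by the kilobases of merged GENCODE M21 exons. The methods of the study name a length-normalised unit, but in the deposited values 1 read was worth the same step in short and long genes, so length was divided out here. If it had been divided out before, this order would not hold. In control HC the order was Klf4 (24.9 per kb), Klf9 (14.5), Klf13 (9.75), Klf10 (8.20), Klf6 (6.19), Klf2 (5.63), Klf3 (5.35), Klf11 (3.96), Klf5 (2.51) and Klf7 (0.562). Klf6, Klf2 and Klf3 overlapped in range, each with the next, and the others stood apart from the next KLF gene of the 10. In control NHC Klf4 led at 79.6 per kb, followed by Klf2 at 43.1 and Klf6 at 30.7, which overlapped each other. After them came Klf10 at 17.1, Klf13 at 12.6, Klf9 at 7.77, Klf11 at 6.79, Klf3 at 5.6, Klf5 at 3.78 and Klf7 at 1.31, with overlap between Klf9 and Klf11 and between Klf11 and Klf3. With drug, Klf10 was the highest in HC, at 35.6 per kb (range 24.5 to 47.2), above Klf9 at 19.2, Klf11 at 13.3 and Klf4 at 11.9, which overlapped each with the next. In treated NHC, Klf4 still led at 55.0 per kb, overlapping in range with Klf2 at 33.9, and Klf10 and Klf11 stood at 11.3 and 5.07.

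**Figure D4:**
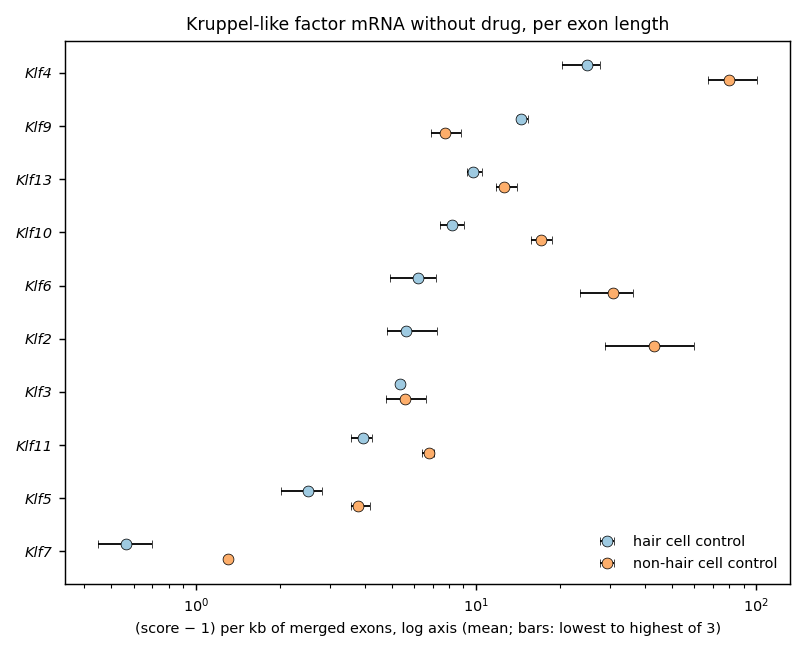
Score above 1 per kilobase of merged exons (log axis) of the 10 KLF genes in control HC and control NHC, as the mean of 3 replicates with bars from the lowest to the highest. Klf4 is the highest in both populations, at 24.9 and 79.6, and Klf9 is the gene that is higher in HC.

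For the other Klf genes and the gene lists below, counts in treated HC stand beside those over all genes. Of all genes tested, 27.5% met the HC call, 12.7% higher and 14.8% lower. Of the 7 other Klf genes in the tables, 5 were tested, and 1 met the call in treated HC. This was Klf1, the erythroid factor, at 3.65, 3.05 and 3.72 in control HC and 2.32, 2.17 and 2.07 in treated HC. The log2 difference of Klf1 was -0.66 (SE 0.12), on 19 to 61 reads per library. A list of 6 red blood cell markers summed to 0.727 to 2.53 in control HC, 0.428 to 14.8 in treated HC and 4.32 to 63.8 in control NHC. Its part in the Klf1 difference was not tested. Without drug, Klf1 and Klf12 were higher in HC than in NHC (log2 0.765 and 0.391). Klf15 and Klf16 were lower in HC (-1.65 and -0.455), and Klf8 stood at -0.01. Klf8, Klf12, Klf15 and Klf16 did not meet the call in treated HC, with log2 differences of -0.06, -0.06, -0.32 and 0.07. Klf14 and Klf17 had 33 and 53 reads over the 12 libraries and were not tested. Klf17 ran from 1.21 to 1.54 in the 6 HC libraries and from 1.00 to 1.04 in the 6 NHC libraries.

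Sp factors read the same GC boxes as the KLF proteins. Of 9 Sp genes 7 were tested, 2 rose in treated HC and 1 fell. Sp1 fell from 92.2, 98.3 and 105 to 60.6, 56.7 and 73.0, a log2 difference of -0.64 (SE 0.12, adjusted p = 0.0025), while in NHC it stood at -0.04. The difference between the effects on Sp1 was -0.60 (adjusted p = 0.0397). Sp2 rose by 0.49 (adjusted p = 0.00481) and Sp4 by 0.46 (adjusted p = 0.0019), and Sp3 stood at 0.16 (adjusted p = 0.223).

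Among 9 corepressors and coactivators that KLF proteins bind, 2 rose and 2 fell in treated HC. Ctbp2, a partner of Klf3 that also encodes the ribbon synapse protein RIBEYE, went from 236, 236 and 218 to 312, 394 and 360. Its log2 difference was 0.62 (SE 0.09, adjusted p = 0.000423). The Sin3 corepressor that Klf10 and Klf11 can recruit has the paralogues Sin3a and Sin3b. Sin3a did not meet the call in treated HC, with a log2 difference of -0.06 (SE 0.07). Sin3b went from 64.2, 66.8 and 66.4 to 43.6, 46.0 and 47.9. The groups of Sin3b did not overlap, with a log2 difference of -0.52 (SE 0.06, adjusted p = 0.00015), and in NHC it stood at 0.05. The acetyltransferase genes moved apart, Ep300 rising by 0.41 (adjusted p = 0.00235) and Crebbp at -0.46 (adjusted p = 0.00238). Of 5 ubiquitin ligase genes that act on KLF proteins, Siah1b rose by 0.69 (adjusted p = 0.0026) and Siah1a fell by 0.42 (adjusted p = 0.00277).

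The TGF-beta route, through which Klf10 and Klf11 were first found, had 1 of 14 genes higher and 4 lower in treated HC. Over all genes 12.7% were higher and 14.8% lower. The median log2 difference was -0.28 for the route and -0.09 for all genes. Tgfbr2, the type II receptor, went from 12.6, 17.6 and 13.1 to 7.06, 7.40 and 7.34, at -0.97 (SE 0.18, adjusted p = 0.00205). Control NHC held 164, 142 and 123 of it, so that Tgfbr2 in HC moved beside the mesenchyme markers, whose part was not tested. Smad7, an inhibitory Smad and TGF-beta target, stood at -0.68 (adjusted p = 0.00159) and Ski, a Smad corepressor, at -0.32 (adjusted p = 0.0289). Skil, its paralogue, rose by 0.50 (adjusted p = 0.0248). The calls of Ski and Skil were lost without some single HC libraries, Ski without 5 of the 6 (-0.45 to -0.23 over all alternatives) and Skil without control replicate 1 or 2 or gentamicin replicate 2 or 3 (0.38 to 0.61).

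In the ERK5 and MEF2 route that acts on Klf2 and Klf4, 1 of 6 genes was higher and 2 were lower in treated HC. Map3k3, a kinase at the head of the route, went from 23.5, 25.7 and 25.2 to 12.8, 12.7 and 16.1, at -0.85 (SE 0.12, adjusted p = 0.000414). The difference between the effects on Map3k3 was -0.86 (adjusted p = 0.00851). Mef2c stood at -0.83 (adjusted p = 0.0156) and lost its call without control replicate 1 or 2 or gentamicin replicate 3, and Mef2a stood at 0.45 (adjusted p = 0.0114) and lost it without gentamicin replicate 2. Of 6 endothelial genes known as targets of Klf2 and Klf4, 0 met the call in either population by limma. At an unadjusted p under 0.05 there were 2 of the 6 in HC and 0 in NHC, and the share of all genes at that threshold was not counted. Among 9 genes of the glucocorticoid and thyroid hormone route, which induces Klf9, 2 rose and 2 fell. Per1, a clock gene and glucocorticoid target, rose by 0.65 (adjusted p = 0.00133), and the receptor gene Nr3c1 by 0.68 (adjusted p = 0.0234), the latter lost without control replicate 1 or 3 or gentamicin replicate 2 or 3. Map3k3 and Mef2c were richer in control NHC (log2 HC over NHC -1.25 and -2.85), and the part of NHC RNA in their differences was not tested. The thyroid hormone receptor gene Thra fell by 0.66 (adjusted p = 0.00218) and Fkbp5, another glucocorticoid target, by 0.41 (adjusted p = 0.00861).

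Of 8 genes described elsewhere as regulated by KLF factors, Odc1, which encodes ornithine decarboxylase, rose by 0.32 (adjusted p = 0.0107) and Gap43, a growth cone protein gene, fell by 0.77 (adjusted p = 0.01). Gap43 was also richer in control NHC, at -2.76 for HC over NHC. Immediate early genes, which tissue dissociation can also induce, gave 1 higher and 5 lower of 12 in treated HC. Their median log2 difference was -0.70, beside -0.09 for all genes. Jun rose from 310, 391 and 404 to 838, 1200 and 987, by 1.45 (SE 0.31, adjusted p = 0.00536). Fos fell from 337, 512 and 493 to 179, 201 and 215, by 1.15 (SE 0.28, adjusted p = 0.00896), and Zfp36, which encodes an mRNA decay factor, fell by 1.18 (adjusted p = 0.00766). Both were richer in control NHC (log2 HC over NHC -2.31 and -2.57), and the part of NHC RNA in their differences was not tested. Fosb, Ier2 and Egr1 stood at -1.38, -0.72 and -0.68, and each lost its call without 3 or more single HC libraries. In NHC the summed score of the 12 genes was 9979 to 13240 without drug and 4991 to 10480 with it.

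In NHC, where 5.44% of all genes met the call, the lists other than markers gave few calls, and all had adjusted p over 0.05. They included Sp2, Hdac1 and Odc1 on the higher side and Siah1a and Junb on the lower side.

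The genes most like Klf10 over the 12 libraries, among 5564 genes with a mean score of at least 50, were Rbm39 (Pearson r of log2 score 0.969), Ccnl1 (0.952), Clk4 (0.951), Rabggtb (0.950) and Topors (0.944). Of these Rbm39, Ccnl1 and Clk4 encode proteins that act on splicing. Clk4 had 33.0, 32.5 and 37.5 in control HC and 96.9, 100 and 77.5 in treated HC. Most like Klf4 were Fbxl19 (0.986), Zfp36l1 (0.984), Fos (0.982), Tead3 (0.979) and Zfp36 (0.979). These libraries share 4 groups, whose means carry most of such a correlation, so r describes the pattern and nothing more.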

How the data were processed

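RNA from 4 sorted populations was sequenced as 50 bp single-end reads from polyA-selected libraries. Per the paper's methods the authors trimmed reads at quality 25, aligned them to mm10 with TopHat 2 in PartekFlow, and normalised. The deposited value is a score, the scaled read number with 1 added. The methods name RPKM, but 1 step per replicate served genes of all lengths, with whole multiples in 75.5% to 78.1% of low values of genes up to 3.4 kb and 73.5% to 75.7% of longer ones, so the deposited values do not look divided by length. Use of strand is not given in the sources used here. Values less 1 were whole multiples of 1 step in 74.4% to 76.0% of low values (tolerance 0.02 reads), so no count model was used. Genes reaching 100 recovered reads in total (16077 of 23420) were fitted as log2 score in limma 3.58.1 (R 4.3.3; group means of 4 groups, trended eBayes), tested on simulated data, with Benjamini-Hochberg adjustment over all genes tested. Fold changes are on the log2 score scale, which understates those of low genes. Replicate numbers pair control HC with control NHC (same-number correlation of deviations 0.216, 0.316 and 0.200; from the data, not the labels). Alternatives were scaling, offset (0.1), read minimum, groups fitted, voom weights, replicate block, threshold and each replicate left out. The KLF genes and the gene lists were chosen with earlier results of these data known. Named genes were all Klf genes, Sp1, Sp3, Sin3a and the genes of each list that met the HC call (up to 6). The 5 genes most correlated with the members highest and lowest in treated HC were also named. A gene of the lists is counted but not reported here by name.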

Additional observations from a re-analysis of the deposited data

Results flagged for a closer look

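The gentamicin effect on Klf10 was higher in HC than in NHC by 2.62 (log2, SE 0.27), and that on Klf11 by 2.08 (SE 0.19). Both are listed because the interaction term of limma passed an adjusted p under 0.05 over all genes tested, as it did for 13.4% of genes. All 3 treated HC libraries were above, and all 3 treated NHC libraries below, their controls for both genes. The genes were picked with these values in view, so this is a description and no separate evidence. Technical and biological sources of the difference were not tested.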

How the results depend on the processing

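The main limits are 3 libraries per group, deposited steps that do not look like the RPKM named in the methods, and genes picked with the data in view. Of 610 values of the 10 KLF genes under alternatives, 559 kept direction and call, 22 lost the call, 9 gained it and 20 turned sign. Over all tested Klf genes 30 values turned sign, none above 0.23 in size. With total reads these were Klf3 0.06, Klf6 0.04, Klf13 0.02, Klf8 0.01 and Klf12 0.03 in HC and Klf6 0.04 for the difference between the effects, and with the median ratio Klf3 0.07 and Klf8 0.09 for HC over NHC. Leaving out each replicate gave, in HC, Klf6 -0.21 to 0.06 and Klf8 -0.13 to 0.02, and in NHC, Klf6 -0.29 to 0.18 and Klf12 -0.05 to 0.15. For the difference between the effects it gave Klf2 -0.16 to 0.46, Klf5 -0.34 to 0.02, Klf6 -0.24 to 0.23 and Klf8 -0.01 to 0.15, and for HC over NHC Klf3 -0.16 to 0.08 and Klf8 -0.08 to 0.07. The number of the 10 genes called in NHC, 1 as reported, was 0 with total reads, no minimum, voom weights or adjusted p under 0.05, 2 with the median ratio, an offset of 0.1, the compared groups alone or the replicate block, and 0 to 1 with a replicate left out. NHC calls over all genes were 875, and 383 for the compared groups alone, 55 at adjusted p under 0.05 (the cause of the other shifts was not tested), and 411 to 1570 with a replicate left out (1366 and 411 without control replicate 1 and 2, 458 and 1570 without gentamicin replicate 2 and 3). Calls for the difference between the effects were 2158, and 1163 to 2378 with a replicate left out (1374 and 1163 without HC control replicate 1 and 2, 1254 without HC gentamicin replicate 2, 1288 without NHC control replicate 2 and 1431 without NHC gentamicin replicate 1). Of 29 list genes called in HC, 19 kept the call in all alternatives, and 0 values turned sign.

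Replicate numbers did not pair treated with control libraries. Same-number correlations were 0.037, 0.052 and 0.037 in HC and 0.208, -0.232 and 0.683 in NHC, and with the replicate block 4618 genes in HC, 878 in NHC and 2306 for the difference were called. With the block Klf7 lost its HC call (-0.46), which left 3 of the 10 KLF genes called, and Klf10 gained its NHC call (-0.58). HC over NHC, where the numbers pair the libraries, gave 11509 with the block and 11425 without, with 9 of the 10 KLF genes in both. The compared groups alone could not be fitted for the difference between the effects, and Klf1 had too few reads for the minimum of 1000.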
